A study of Mus musculus with 35 samples.

Results

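Podocytes that carry the C118F or the H77L allele of Lmx1b (genotypes Lmx1b C118F/lox and H77L/lox), from mice that had received the proteasome inhibitor bortezomib were compared across all expressed genes. The comparison comprised 11 of the 35 mice of the series, 5 with the C118F and 6 with the H77L allele, each a library of its own. A gene entered the comparison when its TPM exceeded 1 in every mouse of at least 1 of these groups, which held for 10803 of the 33292 genes in the table. TPM, the unit of the deposited values, corrects read numbers for gene length and brings each mouse to the same total, so that levels can be set side by side between genes.

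In all mice, controls included, 1 Lmx1b allele was flanked by loxP sites, and a human promoter fragment that is active in podocytes drove the doxycycline-dependent transactivator that switches on Cre recombinase. After Cre has deleted the loxP-flanked allele, the knock-in allele is the remaining Lmx1b copy in the C118F and H77L podocytes, and the wild-type allele in the controls, whose deposited label WT was taken as Lmx1b +/lox. Cre also switches on a membrane-targeted EGFP, by which podocytes were sorted. Young adult C57BL/6 mice drank 2 mg/ml doxycycline for 7 days and were injected intraperitoneally every other day with 0.3 μg bortezomib per g body weight, or with its solvent DMSO. Each of the other groups (H77L and C118F under DMSO, controls under bortezomib and under DMSO) held 6 mice.

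LMX1B is a LIM-homeodomain transcription factor that podocytes need to build and keep their foot processes and the slit diaphragm between them. Its zinc-binding LIM domains recruit cofactors such as LDB1, and both knock-in alleles replace a residue in these domains, H77L in the first and C118F in the second. The proteasome degrades misfolded proteins, and cells in which it is inhibited are known to induce cytosolic chaperones of the heat shock response and, when the load reaches the endoplasmic reticulum, the chaperones of the unfolded protein response. The question the comparison addresses is whether the 2 knock-in lines differ from each other once treated.

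The codons that separate the lines are shown on the coding strand of GRCm39, with the codon in capitals. The transcript used for the position begins 6 codons upstream of the numbering in the allele names, an offset found by asking for a histidine and a cysteine codon at the named distance, and no other offset of up to 20 codons met that condition. The H77L codon lies in exon 2 at chr2:33529596-33529598 and the C118F codon in exon 3 at chr2:33459267-33459269, both on the minus strand. The sequences are those of the reference, before the mutation.
Lmx1b around the H77L codon: gagtcgtcctggCACgaggagtgtttg
Lmx1b around the C118F codon: aagtgcagcggcTGCatggagaagatc

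The depth, summed from whole reads recovered from the TPM values, was 17238204 to 20769230 reads in the H77L mice. In the C118F mice it was 21136470, 5264786, 14365273, 23967550 and 22815102 reads for mice 1 to 5. C118F mouse 2 was therefore the shallowest library and C118F mouse 3 the next. The mouse numbers of C118F mice 3, 4 and 5 (50091, 50095 and 50096) lie above those of all 6 H77L mice, which run from 47067 to 48982, whereas C118F mice 1 and 2 (47614 and 47615) lie among them. Whether this numbering goes with a date is not stated.

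The sorted cells carried podocyte transcripts. Among 10 podocyte markers, Nphs1, which encodes nephrin of the slit diaphragm, had a median of 161 TPM in C118F and 195 TPM in H77L mice, and Synpo, which encodes synaptopodin, of 609 and 905 TPM. The summed level of the 10 markers ranged from 8488 to 12308 TPM in the C118F and from 11154 to 15616 TPM in the H77L mice, overlapping ranges. Of the 10 markers, 2 were lower in C118F mice by the test given below (Synpo and Cdkn1c), 20% against 0.259% of all genes. The difference was positive for 1 of the 10, compared with 54.3% of all genes. The summed level of 12 endothelial markers ran from 12.8 to 28.0 TPM in C118F and from 20.8 to 42.3 TPM in H77L mice, that of 14 leukocyte markers from 16.4 to 22.2 and from 9.52 to 41.2 TPM, and that of 6 erythroid markers did not exceed 11.1 TPM. Mesangial and smooth muscle markers summed to 518 to 891 TPM in C118F and 402 to 607 TPM in H77L mice, with Des, a filament gene that podocytes also express, the most abundant at medians of 540 and 320 TPM. Among the proximal tubule markers Gpx3, which encodes a secreted peroxidase, made up nearly the whole sum (medians of 9745 and 10025 TPM). Markers of the distal tubule and collecting duct summed to 3.81 to 11.2 and 2.25 to 44.4 TPM, and those of parietal epithelial cells to 231 to 359 and 240 to 278 TPM. Xist was detected at 8.46 to 18.3 TPM in all 11 mice, and none of 4 Y-linked genes exceeded 0.131 TPM. Whether other cells had a part in the differences below was not tested. In bulk samples, fewer cells of a type and less RNA per cell cannot be told apart.

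Lmx1b itself was measured at 67.5, 128, 123, 152 and 145 TPM in C118F mice 1 to 5. In the H77L mice the lowest value was 86.7, the median 93.8 and the highest 161 TPM. The groups overlapped, and the difference of 0.21 ± 0.20 (log2(TPM + 1), C118F minus H77L, with its standard error) did not pass the test (adjusted p = 0.667). Reads of the knock-in allele and of any remaining loxP-flanked allele are counted together in these values.

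Of the 10803 genes, 105 differed between the lines at an adjusted p under 0.05 (limma on log2(TPM + 1), Benjamini-Hochberg adjustment), which is 0.972% of those tested. Of these, 77 were higher in C118F mice (0.713%) and 28 lower (0.259%), with a median difference of 0.96 for the former and a median size of 0.67 for the latter on the log2 scale. The values of all C118F mice lay outside the range of the H77L mice for 67 of the 77 and 19 of the 28, against 1.22% and 0.889% of all genes tested in the same directions. The median over all tested genes was 0.02, so that the 2 groups were centred alike. Of the 77 higher genes 20 were on a function list, among them 2 galectins, 2 tetraspanins, 2 integrin subunits and 3 genes of endoplasmic reticulum stress. The lower genes, of which 9 were on a list, include the stress-inducible Hsp70 and Hsp40 chaperones of the cytosol. The number of calls moved with single libraries. With 1 mouse omitted at a time the number ran from 35 to 279, being lowest without C118F mouse 4 and highest without C118F mouse 1, and without the shallow C118F mice 2 and 3 together it was 8, all of them higher in C118F. Within the range of shared mouse numbers (2 C118F and 6 H77L mice) it was 5. All 105 genes kept their direction in both of these comparisons, but few kept their call. Of 53 called genes followed through the alternatives, 7 were called without the shallow libraries (Lgals3, Csrp1, Mustn1, Retreg1, Rdh10, Cavin3 and Sbsn) and 3 within the shared numbers (Csrp1, Mustn1 and Vat1). The other followed genes lost their call in both, with 3 and 2 C118F mice left. Within the shared numbers the difference shrank by more than 1.5 times for 12 of the followed genes, each given with that value below. The limit on TPM bears on the calls too: 12 of the 77 higher genes (15.6%, compared with 3.1% of all genes tested) met it in the C118F group only, and 3 of the 28 lower genes (10.7%, compared with 2.16%) in the H77L group only. Such a gene entered only through the group in which it is high, and those described below are named as such.

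**Figure D1:**
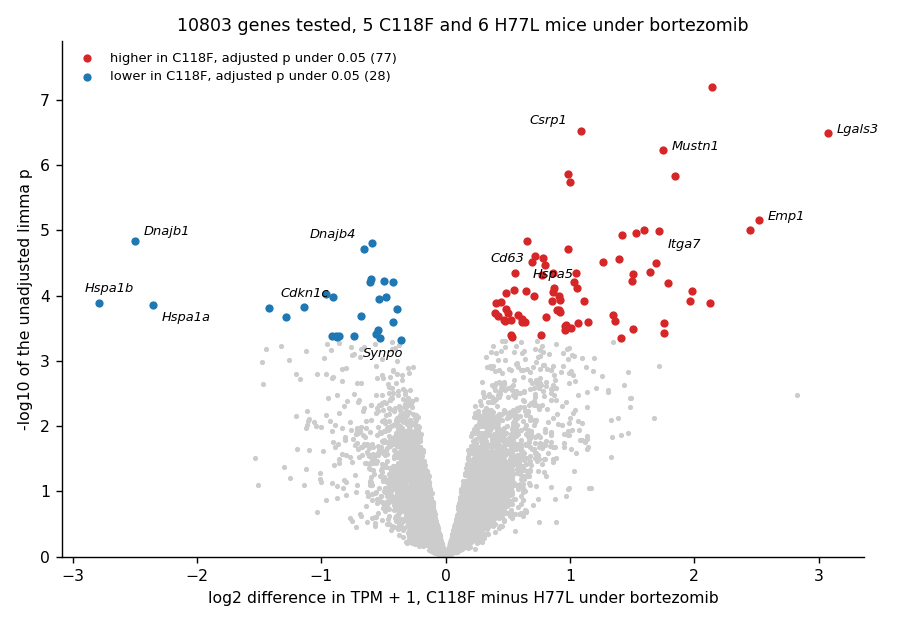
Each point is 1 of 10803 genes, with the log2 difference in TPM + 1 between 5 C118F and 6 H77L mice under bortezomib on the x axis and −log10 of the unadjusted limma p on the y axis. The 77 genes called higher in C118F (red) reach a difference of 3.07 at Lgals3, and the 28 called lower (blue) reach -2.79 at Hspa1b.

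On the log2(TPM + 1) scale the gene with the greatest difference among those called higher was Lgals3 (chr14:47605208-47623624), which encodes galectin-3, a lectin that binds matrix and cell surface glycans. It was measured at 66.1, 213, 85.8, 177 and 152 TPM in C118F mice 1 to 5 and at 5.66, 16.9 and 21.9 TPM (lowest, median and highest) in H77L mice. Every C118F mouse was thus above every H77L mouse. The difference was 3.07 ± 0.35, or 8.42-fold on the scale of TPM + 1 (adjusted p = 0.00116). The call was lost within the shared mouse numbers (2.98, adjusted p = 0.0587) and with all 35 mice in 1 fit (adjusted p = 0.0729). In the exact permutation test over the mice, the two-sided p was 0.00433, the smallest this design can give, and the same holds for each gene named here whose groups do not overlap. This p is unadjusted and follows from the lack of overlap alone, which 228 of the 10803 genes (2.11%) showed. It is no separate support for genes chosen on the same mice.

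Lgals1, which encodes galectin-1, was also higher, by 0.87 ± 0.16 (adjusted p = 0.0213), although the ranges met: 838 to 1629 TPM in C118F and 486 to 891 TPM in H77L mice. Tetraspanins organise membrane domains and mark late endosomes and exosomes. Cd63, the tetraspanin of lysosomes, was measured at 954, 1237, 1151, 1445 and 954 TPM in C118F mice and at 598, 717 and 802 TPM (lowest, median, highest) in H77L mice, a difference of 0.69 ± 0.12 without overlap (adjusted p = 0.0145). Cd9 was lower in level, with 15.1, 76.8, 11.4, 23.7 and 17.8 TPM in C118F mice against at most 8.55 TPM in H77L mice. The value of 76.8 TPM belongs to the shallow mouse 2, and the other C118F mice, at 11.4 to 23.7 TPM, were also above the H77L mice. The difference for Cd9 was 2.13 ± 0.41 (adjusted p = 0.0238). The call was lost without the shallow libraries (1.86, adjusted p = 0.0536), within the shared mouse numbers (2.72, adjusted p = 0.101) and without C118F mouse 4 (2.11, adjusted p = 0.0741). It was also lost without H77L mouse 2, 4 or 6 (adjusted p = 0.0516, 0.0601 and 0.0573), with all 35 mice in 1 fit (adjusted p = 0.257) and without a filter on low values (adjusted p = 0.134).

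The list of tetraspanins, galectins and lysosomal genes had 39 tested members, of which 5 were higher in C118F (Cd63, Cd9, Lgals1, Lgals3 and Hexa) and none lower, that is 12.8% against 0.713% of all genes. Its median difference was 0.22, beside 0.02 for all genes tested, and 31 of the 39 differences were positive, compared with 54.3% over all genes. Hexa, the alpha subunit of the lysosomal hexosaminidase, was higher by 0.49 ± 0.10 (adjusted p = 0.0273), from 277 to 352 TPM in C118F and from 196 to 264 TPM in H77L mice. The proton pump that acidifies lysosomes was not on the list and was looked at after its values were seen. Of 18 tested genes whose symbols begin with Atp6v or Atp6ap, 3 were called higher (0.713% of all genes were) and none lower, 14 differences were positive (54.3% over all genes), and the median was 0.07: Atp6ap2 was higher by 0.45 ± 0.09, Atp6v0b by 0.42 ± 0.09 and Atp6v1b2 by 0.53 ± 0.11, each without overlap between the groups.

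Among genes of the basement membrane, Col4a2, a chain of the type IV collagen network of the fetal glomerulus and of vessels, was higher by 0.91 ± 0.18 (adjusted p = 0.0273), a call that held in 10 of 22 alternatives. Its partner Col4a1, which lies head to head with it on chromosome 8, had a difference of 0.98 ± 0.24 that did not pass the test (adjusted p = 0.0649). Of 14 tested basement membrane genes 2 were called higher, 14.3% against 0.713% of all genes, and none lower. The differences of 9 were positive, where 54.3% of all genes had a positive difference, and the median was 0.16.

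Integrins tie the podocyte to this membrane. Itga7, the alpha subunit of a laminin receptor best known from muscle, was measured at 27.4, 67.0, 48.5, 103 and 46.8 TPM in C118F mice and at 10.9, 15.1 and 20.4 TPM (lowest, median, highest) in H77L mice. The groups were fully separate, with a difference of 1.71 ± 0.26 (adjusted p = 0.00971). Itga5, the alpha subunit of the fibronectin receptor, was measured at 28.0, 74.7, 54.2, 66.4 and 81.1 TPM in C118F mice and at 21.2 to 27.9 TPM in H77L mice, so that C118F mouse 1 was just above the highest H77L mouse. Its difference was 1.27 ± 0.21 (adjusted p = 0.0145). Of 20 tested integrin and focal adhesion genes these 2 were higher, 10% against 0.713% of all genes, and none lower (median 0.10). Cd44, a hyaluronan receptor, was expressed at 1.90 to 9.16 TPM in C118F and 0.371 to 2.14 TPM in H77L mice, and its difference of 1.35 ± 0.30 missed the threshold (adjusted p = 0.0502).

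**Figure D2:**
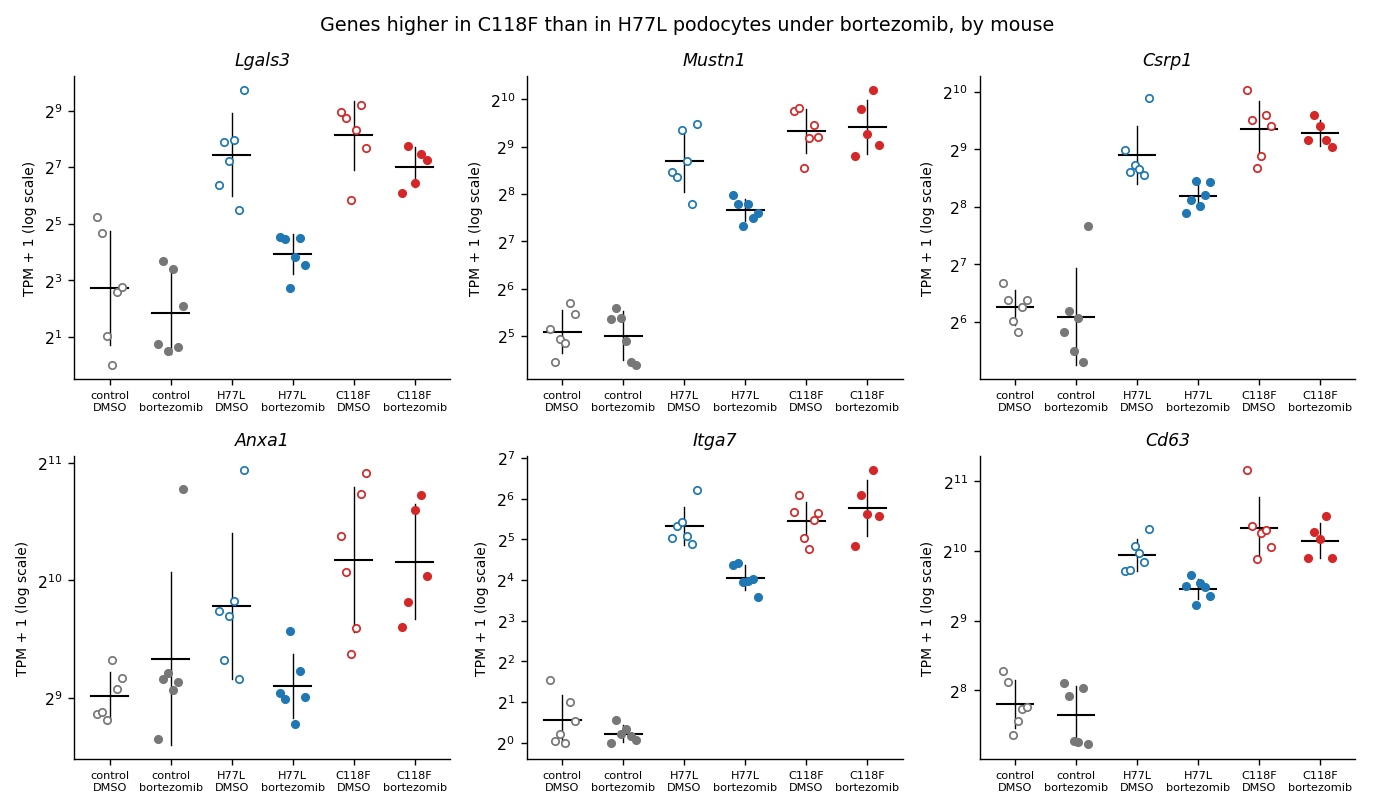
Each point is 1 mouse, plotted as TPM + 1 on a log scale for control, H77L and C118F mice under DMSO (open) and bortezomib (filled), with the mean and standard deviation of the log2 values as lines. In each of the 6 genes the 5 C118F mice under bortezomib lie above the 6 H77L mice under bortezomib, for Lgals3 at 66.1 to 213 against 5.66 to 21.9 TPM, whereas the DMSO groups of the lines overlap.

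Csrp1 and Mustn1 were the called genes among the 36 tested members of the contractile and actin-binding list (5.56% against 0.713% of all genes called higher), whose median was 0.00 with 18 positive and 18 negative differences. Csrp1, a LIM-only protein of actin bundles, was measured at 572, 776, 680, 571 and 528 TPM in C118F and at 238, 285 and 348 TPM (lowest, median, highest) in H77L mice. Mustn1, a small nuclear protein of the musculoskeletal system, was measured at 445, 883, 613, 1174 and 526 TPM and at 160, 207 and 251 TPM. Neither gene's groups overlapped. The differences were 1.09 ± 0.12 for Csrp1 (adjusted p = 0.00116) and 1.75 ± 0.21 for Mustn1 (adjusted p = 0.0016). Acta2, encoding smooth muscle actin, had a difference of 1.12 ± 0.28 that missed the threshold (adjusted p = 0.077), at 5.61 to 16.2 TPM in C118F and 2.31 to 8.52 TPM in H77L mice. Flna, encoding filamin A, had a difference of 0.00 ± 0.15 (515 ± 94.0 TPM in C118F and 516 ± 106 TPM in H77L mice, SD), and Tagln, encoding transgelin, of -0.17 ± 0.27. The direction of Flna and of Tagln changed with the processing.

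Annexins and S100 proteins bind calcium and membranes. Of 15 tested, 3 were higher (Anxa1, S100a6 and S100a10), 20% against 0.713% of all genes, and none lower, with a median of 0.09. Anxa1 was measured at 777, 898, 1552, 1694 and 1048 TPM in C118F mice and at 436 to 756 TPM in H77L mice (difference 1.06 ± 0.19, adjusted p = 0.0207). S100a10, the binding partner of annexin A2, was higher by 0.65 ± 0.12 without overlap (adjusted p = 0.0213). Within the shared mouse numbers the differences were 0.61 for Anxa1 and 0.37 for S100a10. S100a6 was higher by 1.41 ± 0.31, with overlapping ranges of 151 to 527 and 59.3 to 184 TPM (adjusted p = 0.0468), and its call held in 7 of 22 alternatives. Clu, which encodes the secreted chaperone clusterin, was higher by 1.40 ± 0.23 (adjusted p = 0.014), where the lowest C118F mouse, at 316 TPM, fell within the H77L range of 152 to 330 TPM.

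Described next are other genes among the 12 with the lowest p in this direction. Emp1, an epithelial membrane protein, was measured at 19.0, 36.7, 106, 119 and 68.9 TPM in C118F and at 6.76 to 12.5 TPM in H77L mice, so that C118F mice 1 and 2 were the lowest of their group and C118F mice 3 to 5, those with the higher mouse numbers, the highest. Rgcc, a cell cycle regulator, had the same order within the C118F group: 4.51 and 5.20 TPM in mice 1 and 2, and 15.4, 20.0 and 14.2 TPM in mice 3 to 5, against 0.225 to 2.55 TPM in H77L mice. The differences were 2.52 ± 0.37 for Emp1 (adjusted p = 0.00937) and 2.45 ± 0.37 for Rgcc (adjusted p = 0.00971). Retreg1, a receptor for the autophagy of the endoplasmic reticulum, was higher by 0.98 ± 0.13 (337 to 563 against 206 to 275 TPM). Vat1 was higher by 1.00 ± 0.13, and Sgms2, a sphingomyelin synthase of the plasma membrane, by 1.6 ± 0.24. Spire2, an actin nucleator, was higher by 1.53 ± 0.23. Sbsn, a gene of stratified epithelia, remained low in level, with 2.19 to 6.39 TPM in C118F mice and 0.0569 to 0.814 TPM in H77L mice. All 7 of these genes separated the groups fully, but Rgcc, Sgms2, Spire2 and Sbsn met the limit of 1 TPM in the C118F group only. Rdh10, the retinol dehydrogenase of retinoic acid synthesis, was higher by 1.03 ± 0.19 (adjusted p = 0.018) and was the 1 called gene among 10 tested genes of that pathway (10% against 0.713% of all genes called higher). Within the shared mouse numbers the differences were 1.43 for Emp1, 1.51 for Rgcc and 0.57 for Rdh10.

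In the endoplasmic reticulum, Hspa5 was the most abundant chaperone among the called genes. It encodes BiP, the Hsp70 of this compartment, and was measured at 2482, 3003, 3535, 3260 and 4244 TPM in C118F mice 1 to 5 and at 1357, 1808 and 2242 TPM (lowest, median, highest) in H77L mice. No C118F mouse fell within the H77L range. The difference was 0.87 ± 0.16, or 1.82-fold (adjusted p = 0.0207). It was 0.61 within the shared mouse numbers (adjusted p = 0.233) and 0.87 without the shallow libraries (adjusted p = 0.11), and adjusted p was 0.0506 without C118F mouse 3 and 0.0562 without C118F mouse 4, so that the call was lost in each. It was also lost without H77L mouse 2 or 6 (adjusted p = 0.0506 and 0.0529), with mouse number as a linear term (adjusted p = 0.0997), with all 35 mice in 1 fit (adjusted p = 0.115) and without a filter on low values (adjusted p = 0.117). Hspa5 lies 1.13 Mb from Lmx1b on chromosome 2 and so is linked to the knock-in allele. It was 1 of 2 called genes among 51 tested within 2 Mb of Lmx1b, beside 0.972% called among all genes. The other, Slc25a25, a mitochondrial carrier gene, was lower in C118F by 0.56 ± 0.12 (adjusted p = 0.0451), with 64.6 to 87.1 TPM in C118F mice, overlapping the H77L mice, which were at 76.5 TPM and above. Hspa5 and Slc25a25 were also the only called genes among 108 tested within 5 Mb of Lmx1b and among 180 within 10 Mb. Whether linkage had a part in either difference was not tested.

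Dnajb9, a cochaperone of BiP, was measured at 564, 400, 514, 535 and 466 TPM in C118F and at 203, 289 and 363 TPM (lowest, median, highest) in H77L mice (difference 0.80 ± 0.14, adjusted p = 0.0145). Edem1, which directs misfolded glycoproteins to degradation, was higher by 0.50 ± 0.10 (adjusted p = 0.0291), but by 0.27 within the shared mouse numbers (adjusted p = 0.339). Hspa5, Dnajb9 and Edem1 were the 3 called genes among 32 tested genes of the endoplasmic reticulum stress list, 9.38% against 0.713% of all genes, and none was lower. The list had the highest median of those with at least 10 tested members, 0.26, and 28 of 32 differences were positive. Creld2, whose product is retained in the endoplasmic reticulum, separated the groups at 215 to 356 and 87.8 to 214 TPM, but its difference of 0.89 ± 0.20 missed the threshold (adjusted p = 0.0526).

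The promoters of Hspa5 and Creld2 are shown because they carry the endoplasmic reticulum stress element, the motif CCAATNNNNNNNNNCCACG through which ATF6 acts. The 250 bases before the start of each gene were taken from RefSeq (promoter table of build GRCm38.p6), placed in GRCm39 by exact match, and searched on both strands. Capitals mark the motif, which in Creld2 is on the opposite strand. Hspa5 lies at chr2:34661852-34662101 and Creld2 at chr15:88703599-88703848, both on the plus strand.
Hspa5: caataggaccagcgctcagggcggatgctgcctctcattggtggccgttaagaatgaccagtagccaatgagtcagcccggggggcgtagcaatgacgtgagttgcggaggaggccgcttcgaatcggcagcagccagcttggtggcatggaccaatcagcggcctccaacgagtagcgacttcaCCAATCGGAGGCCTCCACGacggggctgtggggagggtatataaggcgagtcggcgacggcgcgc
Creld2: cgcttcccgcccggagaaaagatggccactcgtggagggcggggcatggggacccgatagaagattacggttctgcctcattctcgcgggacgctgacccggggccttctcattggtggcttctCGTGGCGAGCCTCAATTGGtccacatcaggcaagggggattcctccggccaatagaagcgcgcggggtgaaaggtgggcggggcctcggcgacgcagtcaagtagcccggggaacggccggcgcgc

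These letters were found in 37 of 32851 promoters of this length (0.113%). Of the 32 tested genes on the endoplasmic reticulum stress list 28 had a promoter in the table, and 7 of these held the motif: Calr, Creld2, Dnajc3, Hsp90b1, Hspa5, Pdia6 and Syvn1. Of the 77 genes higher in C118F 53 had a promoter there, and Hspa5 was the only one with the motif.

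Of 33 tested heat shock chaperones, 4 were lower in C118F and none higher, 12.1% against 0.259% of all genes called lower. The differences of 23 were negative and of 10 positive, with a median of -0.13. Dnajb1, the inducible Hsp40 that works with Hsp70, was measured at 172, 237, 78.5, 109 and 85.4 TPM in C118F mice 1 to 5 and at 252, 832 and 1384 TPM (lowest, median, highest) in H77L mice. Every C118F mouse was below every H77L mouse, although C118F mouse 2 came close to the lowest of them. The difference was -2.50 ± 0.39, a 5.64-fold lower level on the scale of TPM + 1 (adjusted p = 0.0105). Hspa1a and Hspa1b encode the stress-inducible Hsp70 and are near-identical copies, so reads can be assigned to either and their values are uncertain as single genes. Hspa1a was lower by 2.36 ± 0.46 on the log2 scale, with 88.3 to 496 TPM in C118F and 413 to 2233 TPM in H77L mice. Hspa1b was lower by 2.79 ± 0.54, with 57.5 to 576 and 572 to 2897 TPM (adjusted p = 0.0251 and 0.0238). Within the shared mouse numbers the differences were -1.22 for Hspa1a and -1.41 for Hspa1b (adjusted p = 0.322 and 0.226). In both genes it was C118F mouse 2 that overlapped with the lowest H77L mouse, and C118F mice 1 and 2 were higher than mice 3 to 5.

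Within the shared range of mouse numbers, which keeps C118F mice 1 and 2 only, the difference for Dnajb1 was -1.81 (adjusted p = 0.177), and without the shallow mice 2 and 3 it was -2.59 (adjusted p = 0.0526). The call was also lost with mouse number as a linear term (-2.06, adjusted p = 0.0694) and without a filter on low values (adjusted p = 0.0658). Dnajb4, another Hsp40, was lower by 0.59 ± 0.09 (adjusted p = 0.0105), at 117 to 147 TPM in C118F and 173 to 227 TPM in H77L mice, without overlap. These 4 genes were the called ones of the list. Under bortezomib the control mice were measured at 101 TPM of Dnajb1 on average and under DMSO at 366 TPM, and the DMSO controls ranged from 65.0 to 970 TPM. The range of the DMSO controls thus reached into the values of both treated lines, while the controls under bortezomib stayed at 73.5 to 144 TPM.

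The promoter of Hspa1a is shown for the heat shock element core GAANNTTC, which reads the same on both strands. It lies at chr17:35191133-35191382 in GRCm39 on the minus strand, and capitals mark the motif. The corresponding 250 bases of Hspa1b differ from it at 3 positions.
Hspa1a: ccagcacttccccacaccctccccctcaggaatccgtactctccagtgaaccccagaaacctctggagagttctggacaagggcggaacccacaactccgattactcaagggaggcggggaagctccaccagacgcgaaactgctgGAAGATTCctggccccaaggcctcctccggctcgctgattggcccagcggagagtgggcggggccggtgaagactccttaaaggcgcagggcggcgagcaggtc

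The core was found in 6.69% of all promoters of this length. It was present in 7 of 28 promoters of the heat shock list (Dnaja1, Dnajb6, Fkbp4, Hspa1a, Hspa1b, Hspb1 and Hspe1), in 3 of 19 of the genes lower in C118F (Gabra4, Hspa1a and Hspa1b) and in 4 of 53 of the genes higher in C118F. The matches of Hspa1a and Hspa1b come from near-identical sequences and do not count as separate. Dnajb1 and Dnajb4 were not among the matches, where not every gene had a promoter in the table.

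**Figure D3:**
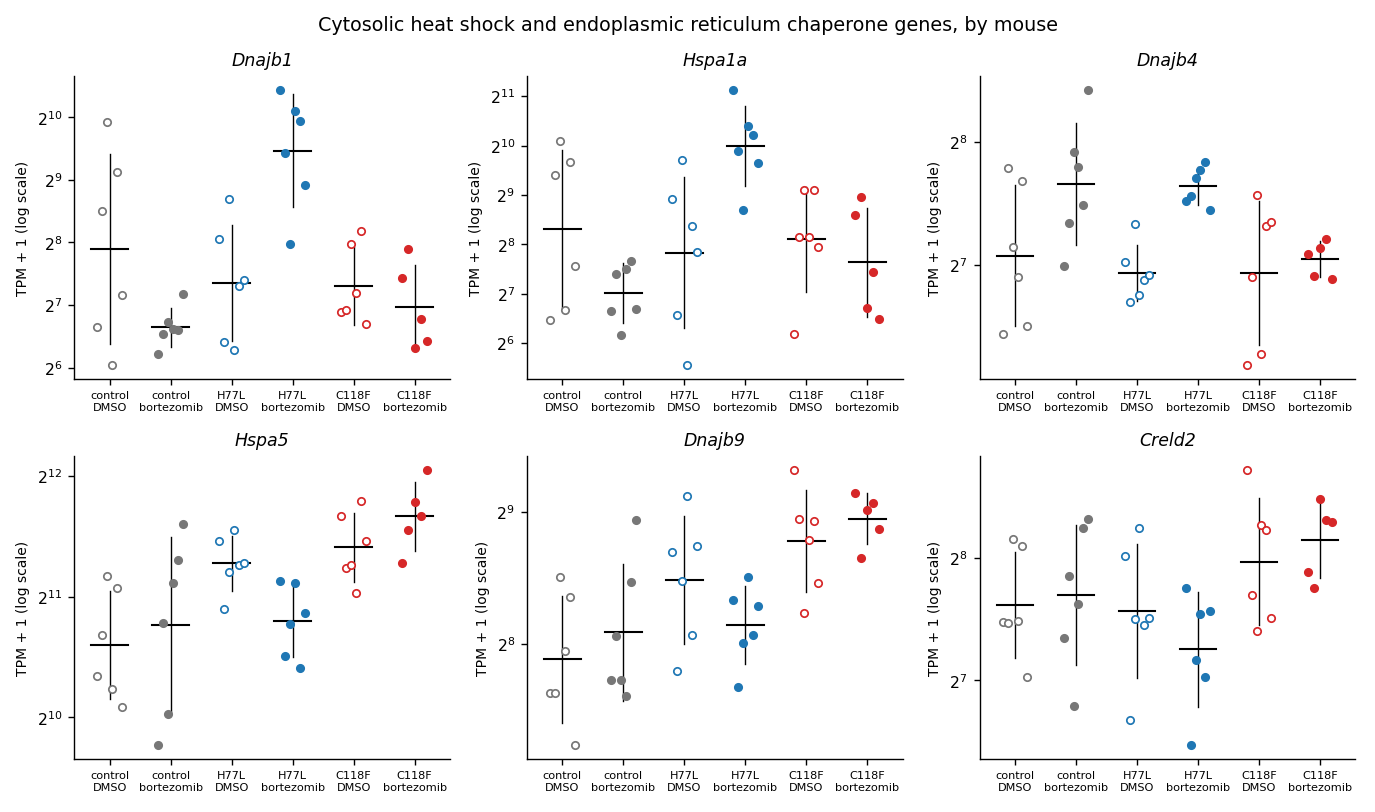
Each point is 1 mouse, plotted as TPM + 1 on a log scale for control, H77L and C118F mice under DMSO (open) and bortezomib (filled), with the mean and standard deviation of the log2 values as lines. The upper row holds cytosolic chaperone genes, in which the H77L mice under bortezomib are the higher group (Dnajb1 at 252 to 1384 TPM), and the lower row holds genes of the endoplasmic reticulum, in which the C118F mice are (Hspa5 at 2482 to 4244 TPM).

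Of the proteasome itself, the target of bortezomib, 43 genes of the constitutive 26S particle and its assembly factors were tested, and Psmg1, an assembly chaperone of the core particle, was the 1 called gene, 2.33% against 0.259% of all genes called lower. It was measured at 45.6, 48.2, 46.0, 46.7 and 36.7 TPM in C118F mice and at 56.1, 63.4 and 65.9 TPM (lowest, median, highest) in H77L mice. The groups did not overlap, and the difference was -0.48 ± 0.09 (adjusted p = 0.0231). Of the 43 differences 39 were negative and 4 positive, compared with 54.3% positive over all genes, with a median of -0.11. The shift was not particular to the proteasome. Differences were also negative for 66 of 75 genes of oxidative phosphorylation (median -0.13) and 70 of 76 of the cytosolic ribosome (median -0.16).

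On the slit diaphragm and podocyte list of 39 tested members, Synpo and Cdkn1c were lower, 5.13% against 0.259% of all genes, and none was higher. Synpo, which encodes synaptopodin of the foot process, was measured at 637, 609, 836, 588 and 578 TPM in C118F and at 788, 905 and 1152 TPM (lowest, median, highest) in H77L mice, so that C118F mouse 3 lay within the H77L range. The difference was -0.53 ± 0.12 (adjusted p = 0.0468), and the call held in 6 of 22 alternatives, with adjusted p up to 0.342. Cdkn1c, a cyclin-dependent kinase inhibitor of mature podocytes, was measured at 348, 261, 154, 139 and 146 TPM in C118F and at 300, 449 and 557 TPM in H77L mice, with mouse 1 in the H77L range and mice 3 to 5 lowest (difference -1.14 ± 0.22, adjusted p = 0.0266). The call held in 10 of 22 alternatives. Within the shared mouse numbers its difference was -0.51 (adjusted p = 0.328), and a fit that took mouse number as a linear term gave -0.74 (adjusted p = 0.0846). Control mice under bortezomib had 4835 TPM of Cdkn1c and 2283 TPM of Synpo on average, far above both lines. Nphs1, encoding nephrin, did not pass the test, with a difference of -0.25 ± 0.11 (adjusted p = 0.297). The median of the list was -0.07. Cldn5, a tight junction gene of podocytes and endothelium, was lower by 0.91 ± 0.20 on the log2 scale (adjusted p = 0.0458), at 43.6 to 103 TPM in C118F and 89.0 to 162 TPM in H77L mice. Its call held in 7 of 22 alternatives, and within the shared mouse numbers its difference was -0.44.

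Further genes were called lower in C118F mice. E2f1, a transcription factor of S phase entry, was lower by 0.60 ± 0.11 (45.5 to 64.1 against 70.4 to 89.9 TPM), while Mcm6, a subunit of the replicative helicase, was higher by 0.78 ± 0.13 (30.9 to 42.3 against 17.5 to 27.1 TPM). With Cdkn1c, these were the called members of the cell cycle list of 20 tested genes, 5% higher and 10% lower against 0.713% and 0.259% of all genes. Hpf1, which directs ADP-ribosylation at DNA breaks, was lower by 0.49 ± 0.09, and Gstt1, a glutathione transferase, by 0.61 ± 0.11, both without overlap. R3hcc1 was lower by 0.66 ± 0.11 (adjusted p = 0.0117). Ngb, encoding the oxygen-binding neuroglobin, was lower by 0.91 ± 0.17, with 34.4 to 65.7 TPM in C118F mice, 64.1 to 109 TPM in H77L mice and 373 TPM on average in controls under bortezomib. Adm, encoding the vasodilator peptide adrenomedullin, was lower by 0.74 ± 0.16 (adjusted p = 0.0458) and was the 1 call on the hypoxia and glycolysis list of 21 tested genes (4.76% against 0.259% of all genes called lower). Within the shared mouse numbers the differences were -0.37 for E2f1 and -0.45 for Adm, and the call of Adm held in 6 of 22 alternatives.

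Some further genes that were higher in C118F mice were on none of the lists and are named here after their values were seen. Of 4 tested caveolins and cavins, which form the small pits of the plasma membrane, 2 were called higher, where 0.713% of all genes were, and Cav1 and Cavin1 were not (1.14 ± 0.45 and 0.08 ± 0.13, adjusted p = 0.26 and 0.823). Cav2 was measured at 33.8, 55.0, 36.6, 32.3 and 75.3 TPM in C118F mice and at 8.23 to 24.8 TPM in H77L mice, and Cavin3 was at 164 to 239 and 110 to 149 TPM (differences 1.5 ± 0.27 and 0.66 ± 0.10, adjusted p = 0.018 and 0.0105). Thbd, encoding the anticoagulant receptor thrombomodulin, was higher by 1.79 ± 0.32, with 22.4 to 77.3 against 5.14 to 15.3 TPM. The growth factor gene Pdgfa was higher by 1.36 ± 0.28, and Mfge8, whose product bridges apoptotic cells to phagocytes, by 0.78 ± 0.14. Phlda3 and Perp were higher by 1.69 ± 0.29 and 1.05 ± 0.18. In each of these 7 genes all C118F mice exceeded all H77L mice.

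Several lists held no call, which at their sizes is near the 0.972% called among all genes and is no result about their members. None of 34 tested interferon-induced genes passed in either direction, and their median was -0.03. None of 22 genes of MHC class I presentation passed (median 0.03). B2m, encoding the invariant chain of MHC class I, was measured at 9307, 4989, 2678, 2544 and 3099 TPM in C118F mice and at 2669, 2843 and 5529 TPM (lowest, median, highest) in H77L mice, a difference of 0.27 ± 0.30 in which C118F mouse 1 stood highest. Within the shared mouse numbers, which keep that mouse, it was 1.05 (adjusted p = 0.177). The complement inhibitor Serping1 (0.29 ± 0.22) and the kinase gene Pak1 (-0.44 ± 0.12, adjusted p = 0.109) did not pass either, and Irf7, at most 3.53 TPM in these mice, was under the expression limit. Of 75 genes of oxidative phosphorylation 66 had a negative difference (median -0.13), as had 70 of 76 genes of the cytosolic ribosome (median -0.16), compared with 54.3% positive over all genes, and none of either list was called. Both medians became positive, at 0.03, within the shared range of mouse numbers. Lists of matrix enzymes (26 genes, median 0.15), interstitial matrix (17, 0.14), TGF-beta signalling (22, 0.19), YAP and SRF targets (22, 0.04), NRF2 targets (27, 0.00), ubiquitin enzymes (23, -0.05), apoptosis regulators (20, 0.07) and immediate early genes (26, -0.25) held no called gene either. The same holds for NF-kappaB targets and cytokines (20, 0.15), cholesterol synthesis (23, -0.03), epithelial injury genes (11, 0.18), Lmx1b and its cofactors (10, 0.07) and the 1 tested gene of MHC class II presentation (-0.80). Of 7 complement genes tested, Clu was the 1 called (14.3% against 0.713% of all genes called higher).

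**Figure D4:**
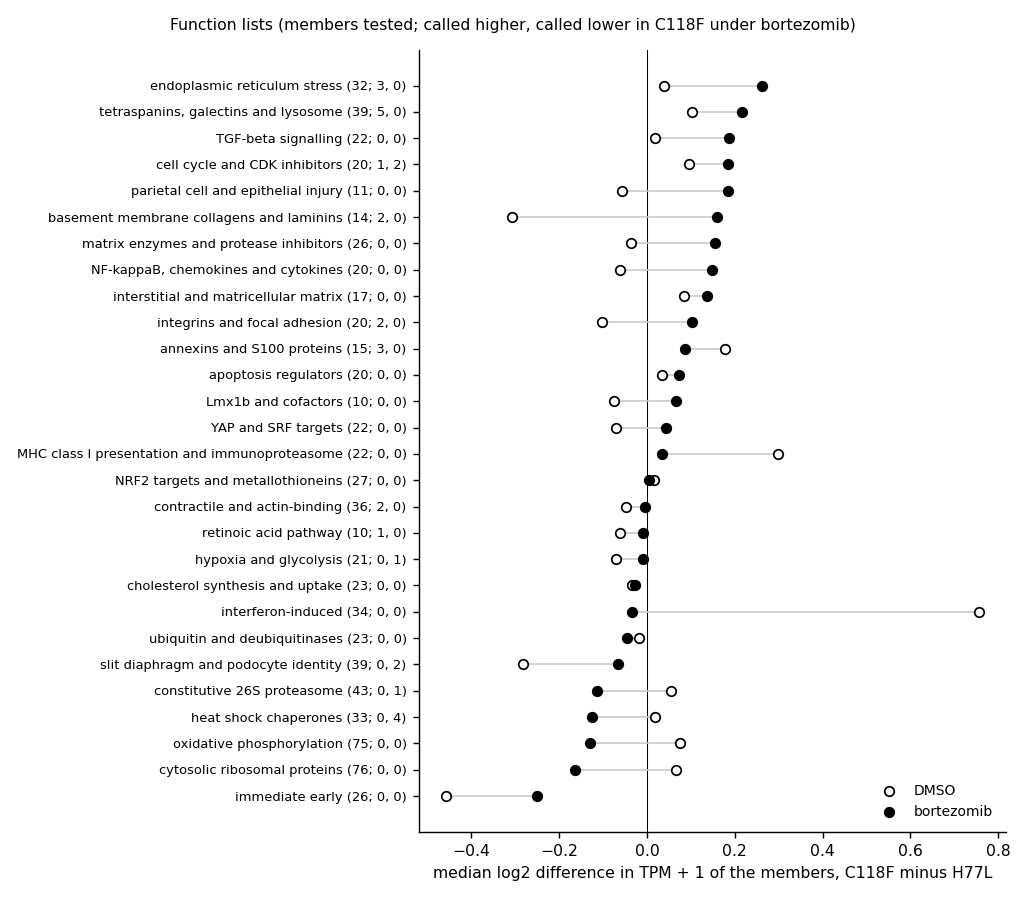
Median difference in log2(TPM + 1), C118F minus H77L, of the tested members of each function list with at least 10 of them, under bortezomib (filled) and under DMSO (open). Under bortezomib the lists span -0.25 (immediate early genes) to 0.26 (endoplasmic reticulum stress), and under DMSO the interferon-induced genes stand apart at 0.76.

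To see whether the lines differ without the drug, the same comparison was made between the 6 C118F and 6 H77L mice under DMSO. None of the 10809 genes passed (0.0%), the lowest adjusted p was 0.931, and 416 genes (3.85%) had an unadjusted p under 0.05, compared with 1558 (14.4%) under bortezomib. Of the 77 genes higher in C118F under bortezomib, 74 were tested under DMSO, with a median difference of 0.29 in place of 0.94, and 65 had the same sign. Of the 28 lower genes 26 were tested, with a median of -0.09 in place of -0.63 and 18 of the same sign. Of all genes tested in both comparisons, 47.4% had the same sign. The DMSO and bortezomib comparisons share no mice. Under DMSO the difference for Lgals3 was 0.68 ± 0.66, for Itga7 0.12 ± 0.24, for Hspa5 0.13 ± 0.15 and for Dnajb1 -0.05 ± 0.39. The spread between mice was larger in the DMSO-treated C118F group than in the other knock-in groups (median SD over genes 0.33 on the log2 scale, compared with 0.22 in H77L mice under DMSO, 0.26 in C118F and 0.21 in H77L mice under bortezomib). Endothelial markers summed to up to 219 TPM and mesangial and smooth muscle markers to up to 3259 TPM in that group, and their part in the DMSO comparison was not tested. With any single mouse left out, the number of genes called under DMSO was also 0.

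**Figure D5:**
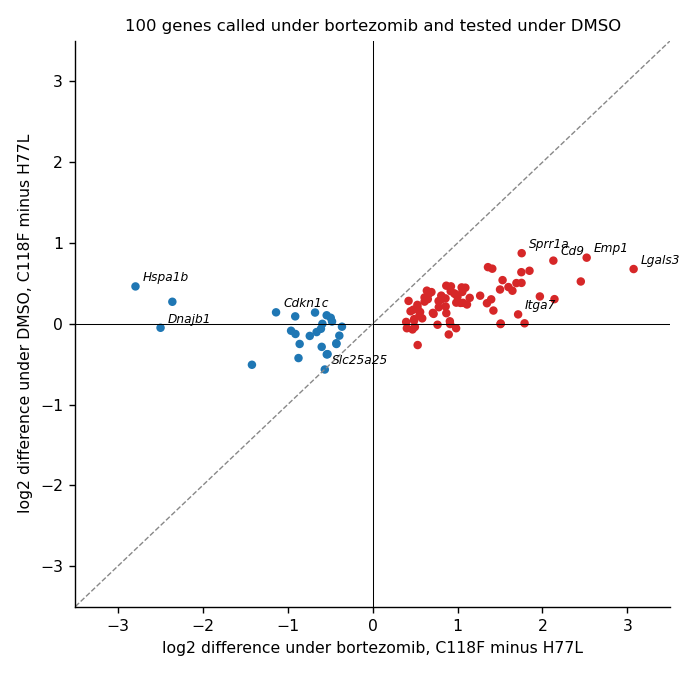
Each point is 1 of the 100 genes that were called under bortezomib and tested under DMSO, with the log2 difference C118F minus H77L under bortezomib on the x axis and under DMSO on the y axis, and the dashed line marks equal differences. The genes were chosen on the x axis; on the y axis the higher genes (red) have a median of 0.29 and the lower genes (blue) of -0.09.

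That a gene passed under bortezomib and not under DMSO does not show that the line difference depends on the drug, so the change of the line difference was tested itself, as an interaction over the 23 knock-in mice. None of 11046 genes passed (0.0%), with a lowest adjusted p of 0.574, and 840 (7.60%) had an unadjusted p under 0.05. A line difference that is specific to bortezomib was therefore not shown for any single gene. The genes with the lowest unadjusted p were Tnxb, Gm45069, Hpf1, Dlgap1 and Itga7. Tnxb, which encodes a tenascin of connective tissue, was measured at 2.11, 3.04, 2.02, 3.40 and 1.76 TPM in C118F mice under bortezomib and at 0.423 to 1.18 TPM in H77L mice, and its interaction was 1.42 (unadjusted p = 5.19e-05). Gm45069, a gene on chromosome 7 without an assigned function, was at most 1.84 TPM in H77L and at least 1.98 TPM in C118F mice. Tnxb and Gm45069 met the limit of 1 TPM only in the C118F mice under bortezomib, the group in which they are high, and so entered the test only through it. The differences of such low genes depend on the scale. The difference under bortezomib was 1.98 for Gm45069 and 0.96 for Tnxb, but 4.49 and 1.59 with a pseudocount of 0.1, and Sbsn moved from 1.85 to 3.15, so that Gm45069 then exceeded Lgals3 (3.16). With voom the values were 3.01, 1.66 and 3.37, and Sbsn exceeded Lgals3 (3.07). Dlgap1, a scaffold of synaptic densities, was higher in C118F by 0.68 ± 0.19 under bortezomib (adjusted p = 0.111) and had a difference of -0.46 ± 0.19 under DMSO, and Hpf1 likewise had opposite signs, -0.49 ± 0.09 and 0.07 ± 0.11. Tnxb and Gm45069 were not tested under DMSO. For Itga7 the interaction was 1.6 (unadjusted p = 0.000335), for Dnajb1 -2.45 (unadjusted p = 0.000459), for Hspa5 0.74 (unadjusted p = 0.00334) and for Lgals3 2.40 (unadjusted p = 0.00793). These genes had been called on the same bortezomib-treated mice, and the difference that chose them is part of the interaction. Their unadjusted p values are therefore a description and no separate evidence that the line difference depends on the drug.

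The control mice place the treated lines. For the 77 genes higher in C118F, the median distance from the control mice under bortezomib was 1.79 in C118F and 0.65 in H77L mice on the log2 scale, and the H77L mean was above the control mean for 68 of them. Mustn1, for example, averaged 33.0 TPM in controls, 204 TPM in H77L and 728 TPM in C118F mice under bortezomib, and Clu 11.2, 205 and 549 TPM. Relative to DMSO mice of the same line, the median of the 77 genes was -0.71 in H77L and -0.05 in C118F mice. For the 28 lower genes the median distance from the controls was -0.63 in C118F and -0.01 in H77L mice, and relative to DMSO the median was -0.14 in C118F and 0.48 in H77L mice. These values share the treated mice with the comparison that chose the genes and are given as a description.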

How the data were processed

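Podocytes of 35 mice were sorted and poly(A) RNA was sequenced, 1 library per mouse. Per the labels and the methods, the authors trimmed reads with Trim Galore 0.6.7, aligned the trimmed reads with STAR (GRCm39) and used featureCounts 1.6.3 for counting, and checked PCR duplication with Picard. The authors deposited TPM values. The step from counts to TPM, the use of strand and any removal of duplicates are not given in the sources used here, and the counts were not used here. Of 33292 gene identifiers, 32776 were found in GENCODE vM39 (GRCm39).

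TPM rise in steps of 1 read per gene length. From these steps whole reads were recovered for 90.3% of the 23943 genes above 0, which gave the depth per mouse. Depth estimates carry no error for amplification, so the spread between mice was used as the error.

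Groups followed the labels. Genes above 1 TPM in every mouse of at least 1 group compared were fitted on log2(TPM + 1) with limma 3.58.1 (R 4.3.3, eBayes with trend) and adjusted by Benjamini-Hochberg. Differences are C118F minus H77L, and adding 1 understates those of low genes. Single genes were also tested with a two-sided exact permutation test. Tested on simulated data for the bortezomib comparison with 10803 genes, the fit called 89 of 100 genes (mean log2 above 3) changed by 1 log2 unit and 100 of 100 changed by 2, with 11 false calls. The simulated noise was normal, independent between genes and mice, and of the same spread in both groups. Shifts that many genes of a mouse share were thus absent, and the shares of true and false calls need not hold for the real data.

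Named were the genes the study stained or discussed, the 12 called genes with the lowest p in each direction, the 5 with the lowest p in the interaction, and of each of 30 function lists the 3 with the largest difference; not all are described, and some items are not reported here. The members, lists and rules were chosen with earlier results of these data known. Alternatives were another pseudocount (0.1), no filter, a limit of 5 TPM, all 35 mice in 1 fit, array weights, equal medians, Xist or the mouse number as a covariate, a log2 limit of 1 and each mouse left out. Added after seeing the data were voom on recovered reads, leaving out both shallow libraries, and mice numbered below 49000 only. Promoters came from RefSeq (GRCm38.p6).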

Additional observations from a re-analysis of the deposited data

Results flagged for a closer look

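Among the 66 genes followed, 8 values stood apart from the rest of their group of 5 or 6 mice under bortezomib, by a gap that exceeds the 95% critical value of Dixon's ratio. Chance gives such a value in about 1 of 20 groups, and 132 groups were looked at. Gm45069 was flagged in both lines, at 10.8 TPM in C118F mouse 2, the shallowest library, and at 1.84 TPM in H77L mouse 3, the only H77L mouse above 0. Lmx1b was lowest in C118F mouse 1 (67.5 TPM) and highest in H77L mouse 1 (161 TPM). Synpo stood out at 836 TPM in C118F mouse 3, and Psmg1 at 36.7 TPM in C118F mouse 5. Retreg1 was high at 275 TPM in H77L mouse 5, and Rdh10 low at 19.1 TPM in H77L mouse 2.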

How the results depend on the processing

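No paired analysis was possible because the mice carry individual numbers and no replicate number is shared between groups. The number of genes that differed under bortezomib (105; 77 higher and 28 lower in C118F) was 194 (135 and 59) with Xist as a covariate, 348 (245 and 103) with array weights, 30 (25 and 5) with all 35 mice in 1 fit, 24 (18 and 6) with mouse number as a linear term, 13 (9 and 4) without a filter on low values and 40 (34 and 6) with a log2 difference above 1 in addition. Of the alternatives added after seeing the data, leaving out both shallow C118F libraries gave 8 (8 and 0, with 1344 genes at an unadjusted p under 0.05), and mice numbered below 49000 gave 5 (3 and 2). Leaving out 1 mouse at a time gave 35 to 279 (30 to 204 higher, 5 to 75 lower), with 279 without C118F mouse 1, 35 without C118F mouse 4, 38 without H77L mouse 6, 39 without H77L mouse 2, 49 without H77L mouse 4 and 59 without C118F mouse 3. The cause of these shifts was not tested. Voom on recovered reads, another pseudocount, a limit of 5 TPM and equal medians gave counts within 1.5 times. Voom called 72 of the 77 and 25 of the 28 genes again. The counts under DMSO and for the interaction were 0 under every alternative run, voom and leave-one-out fits included, while unadjusted p under 0.05 was reached by 297 to 958 and 570 to 1576 genes in the leave-one-out fits.

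Of 66 single genes followed, 53 were called, and all 53 kept their direction under every alternative, but Mustn1 alone was called under all 22. Directions changed for 4 genes that were not called. Flna (0.00) was -0.0552 with array weights, -0.0455 with equal medians, -0.0556 with the mouse number, -0.16 without the shallow libraries, -0.0233 with voom, and -0.0802 to 0.0915 with 1 mouse left out. Tagln (-0.17) was 0.42 in mice numbered below 49000, 0.15 with the mouse number, and -0.40 to 0.0672 with 1 mouse left out. Lmx1b (0.21) was -0.14 below 49000 and -0.0653 with the mouse number. B2m (0.27) was -0.0394 without C118F mouse 1 and 0.43 without C118F mouse 4, 1.05 below 49000, 0.75 with the mouse number and 0.00 with array weights. Medians of function lists stayed within the spread between mice in 643 of 660 cases.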
